A study of Sus scrofa with 60 samples.

Results

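Neonatal pigs with ligated bile ducts received parenteral nutrition (PN) with either of 2 lipid emulsions, and their liver mRNA was compared here. The comparison sets 8 MLE-BDL pigs against 11 SLE-BDL pigs, 19 of the 60 libraries of the series, chosen by the diet and surgery in the sample labels. MLE is the multicomponent emulsion SMOFlipid, a blend of soybean, medium-chain, olive, and fish oils, and SLE is the soybean oil emulsion Intralipid. BDL is bile duct ligation, here of the cystic and common bile ducts. All 30335 named genes were members, and 16210 of them had enough reads to be tested.

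The pigs came from mixed Landrace and Hampshire sows, were delivered by cesarean section 1 day preterm, and were of either sex. After surgery every pig received a jugular catheter, and both groups were fed wholly by vein until liver was taken on day 14. The same lipid comparison in sham-operated pigs (9 MLE-sham and 10 SLE-sham), whose abdomen was opened and liver handled without ligation, served as the background. Ligation at birth with 14 days of obstruction models early cholestasis from a mechanical block, and it does not model the immune or genetic onset of biliary atresia.

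In ligation, bile acids that cannot leave through the duct accumulate in hepatocytes, which take them up, hydroxylate and sulfate them, and return them to blood for loss in urine. Hepatocytes also secrete the acute-phase proteins and clotting factors of plasma, whose mRNA rises when interleukin-6 and related cytokines act through STAT3. Lipid emulsions differ in the fatty acids and plant sterols they carry, and fish oil supplies long-chain omega-3 fatty acids that soybean oil lacks.

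The 19 libraries held 15172827 to 19013668 reads counted on named genes, and no library of either group stood apart in depth. The 10 most abundant genes took 16.9% to 18.2% of the counts in MLE-BDL and 16.2% to 23.1% in SLE-BDL. SLE-BDL pigs also differed more among themselves, with a median chi-square per degree of freedom of 90.4 over their 55 pairs against 36.1 over the 28 pairs of MLE-BDL. The pig identifiers carry a number shared by several pigs, and only 2 of these numbers occur in both groups, in 3 MLE-BDL and 3 SLE-BDL pigs. The other 5 MLE-BDL pigs and 8 SLE-BDL pigs carry numbers found in 1 of the groups alone. What the number stands for is not given in the sources used here, so for most pigs the lipid and this number cannot be told apart. The sources used here name no litters for these pigs either, so p-values rest on the spread among single pigs and not among litters. The main edgeR fit below took that spread from all 60 pigs, not from these 19 alone. Of the hepatocyte markers, all 24 found among the named genes had enough reads to be tested.

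In edgeR's quasi-likelihood test, 60 genes, 0.37% of those tested, changed by more than 2-fold with a Benjamini-Hochberg adjusted p below 0.05, and these are the called genes below. Of these, 48 (0.296%) were lower and 12 (0.074%) were higher in MLE-BDL. The balance of lower and higher genes depended on the tool, since limma-voom called 28 genes, 12 lower and 16 higher, and DESeq2 on the same 60 pigs 110, 94 lower and 16 higher. edgeR fitted to the 19 pigs alone called 9, 6 lower and 3 higher. The lower ones were FAM20A, C8H4orf17, LOC106504881, LOC106504875, LOC100152150, and LOC110260249, and the higher ones CNTFR, UCN3, and LOC100521659. Of the 16 genes described in full below, CNTFR alone is among these 9. Without the fold threshold, 112 genes (0.691%) were lower and 35 (0.216%) higher. The median log2 fold change over all tested genes was 0.00. The lower genes had a median log2 fold change of -1.53, ranging from -1.01 to -4.14, and the higher genes one of 1.41, ranging from 1.03 to 1.96.

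How far each call rests on the identifier number or on a few pigs bears on all that follows. When the identifier number entered the model as a block, 10 genes were called, 7 of them among the 60 (ANGPTL4, FAM20A, APOA5, LOC106504881, LOC106504875, TRPM3, and CNTFR), so the other 53 lost their call, and all 60 kept their direction, with medians of -1.4 for the lower and 1.19 for the higher genes. Among the 6 pigs with the 2 shared numbers, 51 of the 60 genes kept their direction within both numbers. The other 9 had the opposite sign within 1 of them, among them MFSD2A (0.47), AQP3 (0.25), RDH16 (0.15), and CKAP4 (0.12), given as differences in mean log2 CPM. These 6 pigs also served to choose the 60 genes, so the agreement in direction follows in part from that choice. The comparisons are small, with 2 MLE-BDL pigs against SLE-BDL replicate 9 alone within 1 number. Within the other number, 1 MLE-BDL pig stood against 2 SLE-BDL pigs. With each of the 19 pigs left out in turn, 17 of the 60 genes were called every time. Among the least stable, SAA3 and DUOX2 lost their call in 12 of the 19 fits, and CYP2C36, CDH17, RGCC, GADD45G, and SYNPR in 11. SOCS1, SLC13A5, and LOC106506856 lost it in 10, LIPG, APCS, CRP, and GPC2 in 9, and METTL7B, COL15A1, S100A4, and SLC18A2 in 8. For the 48 lower genes the highest value of the 19 pigs lay most often in SLE-BDL replicate 7 (19 genes) or replicate 9 (12 genes), so that many fitted fold changes exceed the ratio of the group medians. An exact permutation test on mean log2 CPM over the 19 pigs, not adjusted for the number of genes, gave p under 0.05 for 51 of the 60 genes. Since the 60 were chosen by differences among the same pigs, this count follows in part from that choice. Of the genes described in full, MFSD2A (p = 0.0577), FGF23 (p = 0.0614), APCS (p = 0.051), and LIPG (p = 0.288) were not under 0.05 in this test.

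The 10 lower genes with the largest fold changes, among those with a mean log2 CPM of at least 1, held transporters of lipid and glycerol, a lipase, cytochromes P450, and pentraxin and amyloid proteins of the acute phase. MFSD2A (chromosome 6, 95738961-95753245), the carrier of lysophosphatidylcholine with docosahexaenoic acid, lay at 0.708, 1.63, and 3.29 CPM (read counts relative to each library's TMM-adjusted total) as the lowest, median, and highest MLE-BDL pig. In SLE-BDL the same 3 values were 0.289, 3.09, and 172 CPM. The groups overlapped at the low end, and 5 SLE-BDL pigs lay above every MLE-BDL pig. The log2 fold change was -4.14 ± 0.80 (SE, adjusted p = 0.00469), and it was -3.30 without SLE-BDL replicate 7.

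LIPG (chromosome 1, 99081940-99110671), the endothelial lipase that cleaves phospholipids of high-density lipoprotein, ranged from 4.48 to 12.7 CPM in MLE-BDL and from 3.11 to 216 in SLE-BDL, while the medians of 7.12 and 7.63 were close. Its log2 fold change of -2.05 ± 0.53 (adjusted p = 0.041) became -0.61 without SLE-BDL replicate 9, and the call was lost. AQP3 (chromosome 10, 33045374-33050285), a channel for water and glycerol, lay at 0.535, 0.823, and 1.87 CPM in MLE-BDL and at 0.665, 3.62, and 12.6 in SLE-BDL. All 8 MLE-BDL pigs were below the SLE-BDL median, with a log2 fold change of -2.44 ± 0.57 (adjusted p = 0.0197), and the call was lost without MLE-BDL replicate 5 (-2.39) and under the identifier block (-1.39, adjusted p = 0.311). FGF23 (chromosome 5, 66028591-66038078), the phosphate-regulating hormone, lay at 1.23, 3.37, and 5.56 CPM against 1.13, 5.26, and 69.4. Its groups overlapped widely, and the log2 fold change of -2.26 ± 0.54 (adjusted p = 0.0249) moved to -1.61, with the call lost, without SLE-BDL replicate 9.

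The porcine cytochromes P450 CYP2C36 and CYP2C49, oxidases of drugs and lipids, fell together with METTL7B, a methyltransferase of the endoplasmic reticulum and lipid droplets. CYP2C49 (chromosome 14, 106571803-106612082) lay at 16.5, 25.9, and 106 CPM in MLE-BDL and at 9.62, 176, and 367 in SLE-BDL, and 8 SLE-BDL pigs exceeded every MLE-BDL pig. Its log2 fold change was -2.12 ± 0.49 (adjusted p = 0.0195), and the call was lost without MLE-BDL replicate 5 (-1.99) or 7 (-2.0). CYP2C36 (chromosome 14, 106184665-106219631) was rare, at 0.727, 0.971, and 3.00 CPM against 0.0997, 5.23, and 28.0, with a log2 fold change of -2.55 ± 0.66 (adjusted p = 0.043). Both are members of a family of near-identical copies, so the split of reads between copies is uncertain. METTL7B (chromosome 5, 21123548-21126295) lay at 3.03, 6.76, and 36.1 CPM against 4.59, 49.1, and 233, a log2 fold change of -2.31 ± 0.59 (adjusted p = 0.04). RTP3 (chromosome 13, 29471568-29476277), a receptor-transporting protein of liver, lay at 1.59, 3.04, and 6.43 CPM against 1.4, 7.18, and 75.1. Its log2 fold change of -2.0 ± 0.49 (adjusted p = 0.0284) was -1.16, no longer past the threshold, without SLE-BDL replicate 7.

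SAA3 (chromosome 2, 41021349-41025950), a serum amyloid A protein, separated the groups in full. MLE-BDL pigs lay at 8.80, 18.1, and 22.1 CPM and SLE-BDL pigs at 24.6, 40.7, and 286. Over all tested genes, 5 genes (0.0308%) had every MLE-BDL pig below every SLE-BDL pig, and 1 gene (0.00617%) had every MLE-BDL pig above. The log2 fold change of SAA3 was -2.52 ± 0.67 (adjusted p = 0.0495), and 3 SLE-BDL pigs lay far above the others. SAA3 belongs to a family of near-identical copies, so its share of reads is uncertain. APCS (chromosome 4, 90900585-90901854), serum amyloid P component, lay at 4.99, 21.7, and 51.0 CPM against 6.59, 62.9, and 536, a log2 fold change of -2.37 ± 0.60 (adjusted p = 0.0341). Its 2 groups overlapped, with 6 SLE-BDL pigs above all MLE-BDL pigs.

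The 6 higher genes described in full were expressed at low to moderate levels, and in each the groups overlapped in part. SLC6A13 (chromosome 5, 67574149-67617513), a transporter of GABA and taurine, rose most. It lay at 2.14, 10.8, and 13.6 CPM in MLE-BDL and at 0.407, 1.6, and 6.82 in SLE-BDL, a log2 fold change of 1.96 ± 0.40 (adjusted p = 0.00571). STS (chromosome X, 3926027-4076900), which removes sulfate from steroids, lay at 2.5, 9.33, and 12.9 CPM against 0.734, 2.11, and 5.09, a log2 fold change of 1.67 ± 0.37 (adjusted p = 0.014). In both genes all MLE-BDL pigs were above the SLE-BDL median, and the call of STS was lost without MLE-BDL replicate 5 (1.55) and under the identifier block (1.07, adjusted p = 0.241). As STS lies on chromosome X and the pigs were of either sex, the fit was repeated with expression of the Y-linked EIF1AY as a covariate. STS kept its call in that fit.

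CNTFR (chromosome 10, 32211809-32251412), the receptor of ciliary neurotrophic factor, had the smallest p of the higher genes. Its MLE-BDL pigs lay at 8.21, 17.1, and 38.2 CPM and its SLE-BDL pigs in a narrow range at 6.89, 7.85, and 10.3, a log2 fold change of 1.26 ± 0.18 (adjusted p = 1.66e-05). TRPM3 (chromosome 1, 223833263-224682424), a cation channel, lay at 7.36, 10.3, and 15.4 CPM against 1.79, 4.30, and 10.5, a log2 fold change of 1.19 ± 0.25 (adjusted p = 0.00718). For CNTFR 6 and for TRPM3 4 of the 8 MLE-BDL pigs exceeded every SLE-BDL pig.

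CDH17 (chromosome 4, 42508852-42597888), liver-intestine cadherin, lay at 7.76, 15.5, and 24.4 CPM in MLE-BDL against 3.07, 8.04, and 11.5, a log2 fold change of 1.04 ± 0.27 (adjusted p = 0.0442). COL15A1 (chromosome 1, 240718128-240829188), a collagen of basement membranes, lay at 10.8, 26.3, and 35.7 CPM against 6.65, 11.3, and 21.1, a log2 fold change of 1.03 ± 0.23 (adjusted p = 0.0114). In each of them 7 of 8 MLE-BDL pigs were above the SLE-BDL median.

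**Figure D1:**
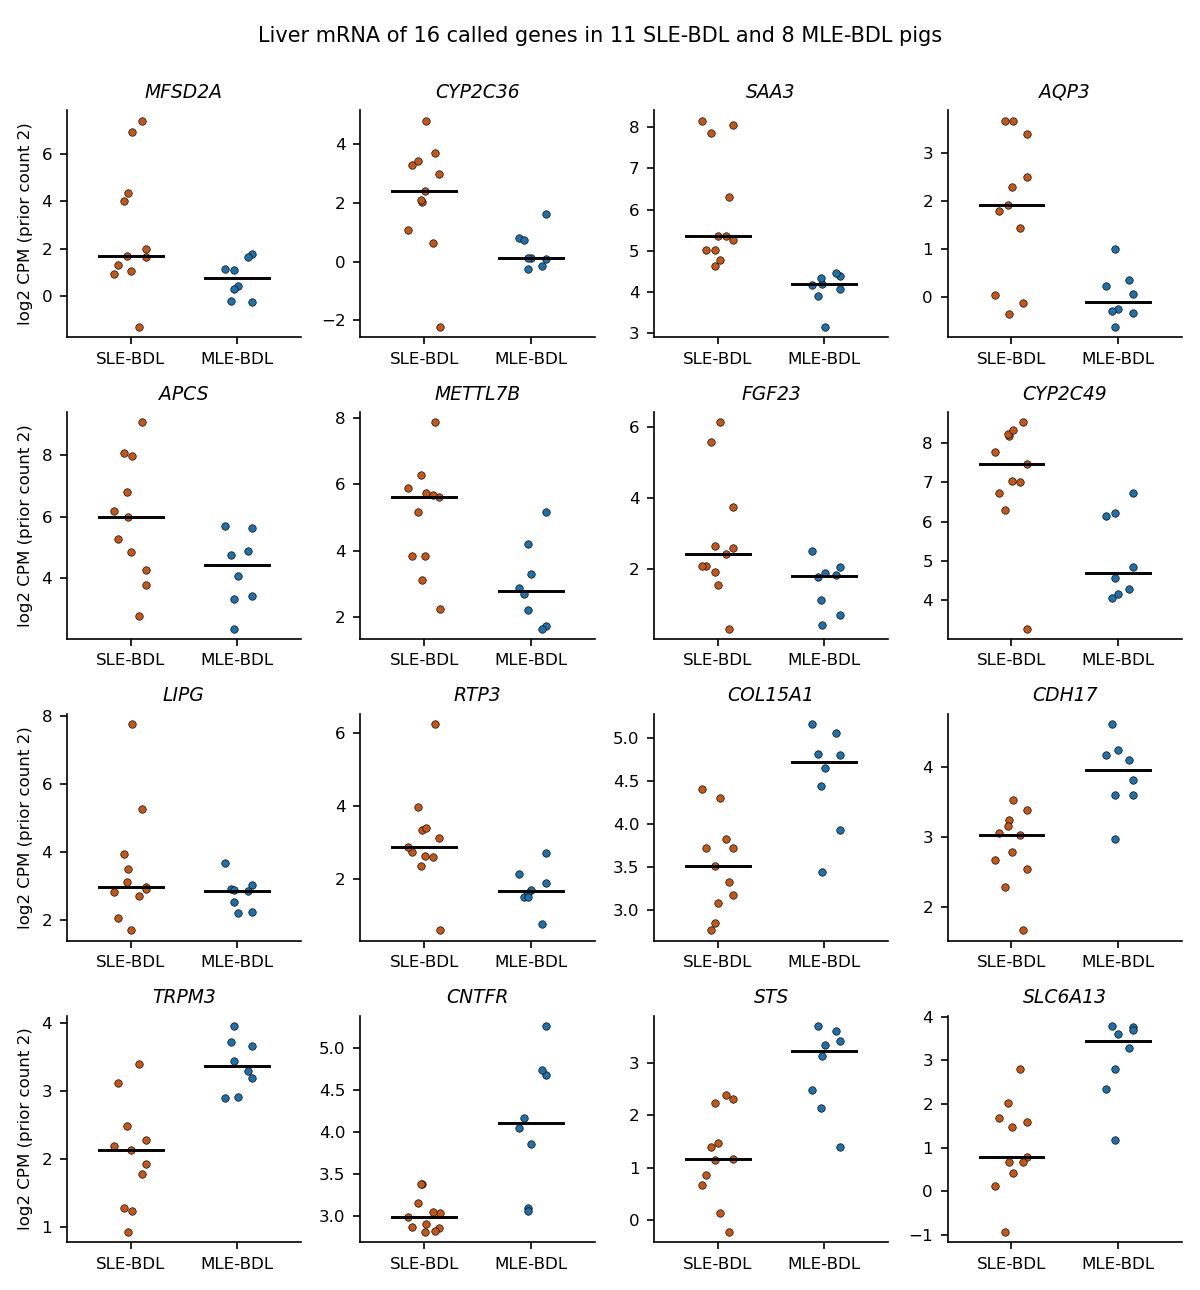
Liver log2 CPM (y axis, prior count 2) of the 16 called genes described in full, with 1 point per pig for 11 SLE-BDL and 8 MLE-BDL pigs and a line at each median, ordered from the most lowered (MFSD2A, -4.14) to the most raised (SLC6A13, 1.96). In several lowered genes a few SLE-BDL pigs lie far above the rest, as in LIPG (216 CPM against a median of 7.63), while in CNTFR and TRPM3 the lowest MLE-BDL pigs lie within the range of SLE-BDL and all 8 lie above its median.

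The plot of log2 CPM per pig gives each gene its own axis, so spreads compare within a panel. The wide side of the lowered genes is SLE-BDL, and the wide side of CNTFR is MLE-BDL.

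Acute-phase proteins formed the list with the most members lower past an adjusted p of 0.05. Of 30 tested members, 26 had a lower fitted mean in MLE-BDL, 9 of them past an adjusted p of 0.05, and the list median was -0.59. Over all 16210 tested genes, 8000 had a lower fitted mean and 0.691% were lower past the same threshold. Under the identifier block none of the 9 passed, with adjusted p values of 0.114 to 0.351 and a list median of -0.53. In edgeR fitted to the 19 pigs alone none of the 9 passed either, with adjusted p values of 0.0647 to 0.197. HP, haptoglobin, which binds free hemoglobin, is among the most abundant liver mRNAs. It lay at 1464, 2376, and 3624 CPM in MLE-BDL and at 2954, 5583, and 21665 in SLE-BDL, so that 7 of 8 MLE-BDL pigs were below every SLE-BDL pig. Its log2 fold change was -1.63 ± 0.31 (adjusted p = 0.00405).

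ITIH4, the major acute-phase protein of pigs, lay at 1301, 1646, and 2213 CPM against 1914, 3187, and 8769, and fell by 1.08 on the log2 scale (adjusted p = 0.0073). Without SLE-BDL replicate 7 its log2 fold change was -0.87, under the fold threshold. CRP, C-reactive protein, lay at 18.8, 26.8, and 43.8 CPM against 22.3, 40.5, and 249.8 and fell by 1.41 (adjusted p = 0.0284). LBP, the lipopolysaccharide-binding protein, fell by 0.68 (adjusted p = 0.0329).

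The 3 chains of fibrinogen moved by nearly the same amount. FGA lay at 5384, 6287, and 7387 CPM in MLE-BDL and at 6328, 11484, and 20592 in SLE-BDL. The log2 fold changes were -0.85 ± 0.17 for FGA (adjusted p = 0.00485), -0.83 ± 0.17 for FGB (adjusted p = 0.00544), and -0.83 ± 0.16 for FGG (adjusted p = 0.00485), which is under the 2-fold threshold. All 3 stayed past the adjusted p threshold when any of the 19 pigs was left out. Under the identifier block they were -0.72, -0.73, and -0.72, with adjusted p values of 0.114 to 0.119.

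**Figure D2:**
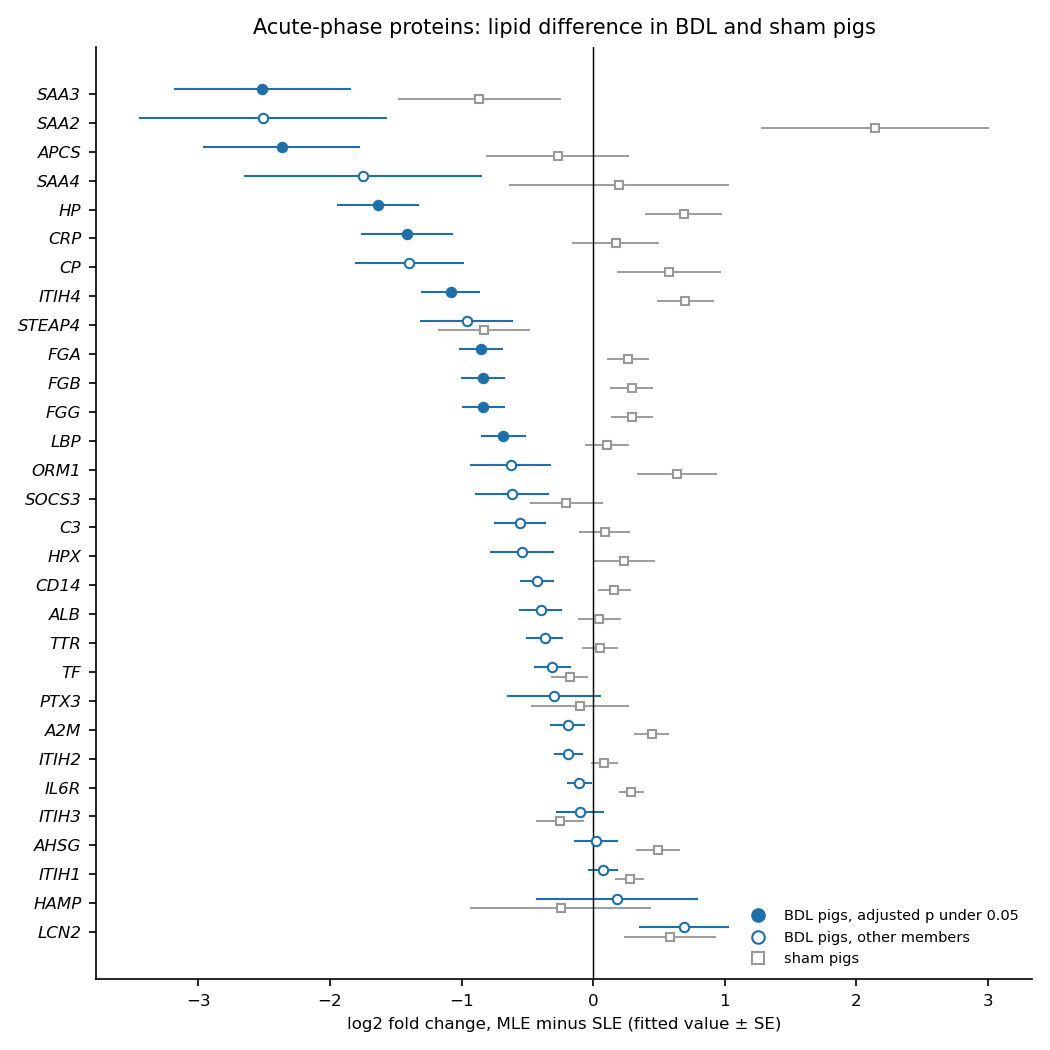
Log2 fold change of MLE against SLE (x axis, fitted value with its SE) for the 30 tested acute-phase genes, in BDL pigs (circles, filled where the adjusted p is under 0.05) and in sham pigs (squares). Of the 30 circles, 26 lie below 0 and 9 are filled, and the BDL median of -0.59 contrasts with a sham median of 0.18.

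The plot of acute-phase genes gives a list median of 0.18 in sham pigs beside -0.59 in BDL pigs. For 5 of the 30 members (HP, ITIH4, FGA, FGB, and FGG) the difference between BDL and sham pigs was itself past an adjusted p of 0.05 in the interaction test. These 5 members, CRP, and LBP lay above 0 in sham pigs. SAA3 (-0.86) and APCS (-0.27) lay below 0 there as well, with interaction adjusted p values of 0.551 and 0.327. LRG1, a leucine-rich plasma glycoprotein that was not on the list, fell by 1.29 (adjusted p = 0.0073), from a median of 223 to 101 CPM.

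The coagulation, complement, and hepatocyte marker lists had medians nearer to 0. In the coagulation list, 30 of 36 members had a lower fitted mean, with a median of -0.20, and besides the fibrinogen chains CPB2, an inhibitor of clot lysis, fell by 0.44 (adjusted p = 0.0495, lost in 15 of 19 fits with a pig left out and under the identifier block). In the complement list, 29 of 34 members were on the lower side, with a median of -0.27. C8G, a chain of the membrane attack complex, was the member past the threshold, falling by 0.57 (adjusted p = 0.0169), and C5 had a log2 fold change of -0.48 (adjusted p = 0.0753). Among hepatocyte markers, 17 of 24 were on the lower side with a median of -0.18. FGB and APOC3, an apolipoprotein that slows the clearance of triglyceride, were past the threshold, and APOC3 fell by 0.66 (adjusted p = 0.0195, and 0.0543 under the identifier block).

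The summed hepatocyte markers ranged from 122849 to 147227 CPM in MLE-BDL and from 124331 to 191003 in SLE-BDL. In bulk liver, fewer cells of a type and less mRNA per cell cannot be told apart. All 33 tested genes of endoplasmic reticulum folding had a lower fitted mean in MLE-BDL, with a list median of -0.30. Past the threshold were EDEM2 (fell by 0.49, adjusted p = 0.0107) and DERL2 (fell by 0.35, adjusted p = 0.0457), which serve the disposal of misfolded proteins. Neither passed under the identifier block (adjusted p = 0.292 and 0.352), and DERL2 did not pass in 10 of 19 fits with a pig left out. DERL2 lay at 39.0 to 53.8 CPM in MLE-BDL and at 53.9 to 73.1 in SLE-BDL, without overlap.

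Genes of fatty acid use split into a few strong falls and a flat remainder. Of 44 tested members of oxidation, ketogenesis, and PPARA targets, 4 fell, 0 rose, and the median was -0.07, beside 0.691% lower and 0.216% higher over all genes. In sham pigs 5 members fell at the same threshold and the list median was -0.25. Besides MFSD2A, the members that fell in BDL pigs were ANGPTL4, an inhibitor of lipoprotein lipase, SLC25A47, a mitochondrial carrier of liver, and PDK4, which holds back glucose oxidation. SLC25A47 lay at 17.5, 23.3, and 32.8 CPM in MLE-BDL and at 30.3, 47.0, and 223 in SLE-BDL, and 7 of 8 MLE-BDL pigs were below every SLE-BDL pig. It fell by 1.53 (adjusted p = 0.00544) and was called with any of the 19 pigs left out, while under the identifier block it was at -1.44 (adjusted p = 0.0877).

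ANGPTL4 fell by 1.37 (adjusted p = 0.0248) from a median of 47.2 to 31.3 CPM. Without SLE-BDL replicate 9, whose 385 CPM was the highest, its log2 fold change was -0.77 and not past the threshold. PDK4 fell by 0.97 (adjusted p = 0.0284), with the result lost in 8 of 19 fits with a pig left out and under the identifier block (adjusted p = 0.0736). APOA5, an apolipoprotein that lowers plasma triglyceride, lay at 3.24, 4.59, and 10.3 CPM against 7.62, 13.6, and 58.7 and fell by 1.76 (adjusted p = 0.00897). Of the enzymes that make fat, none of 36 members passed, with DGAT2 at -0.73 (adjusted p = 0.0971) and GPAM at -0.68 (adjusted p = 0.11). In sterol efflux none of 20 members passed and in cholesterol synthesis none of 25, with medians of -0.11 and 0.03.

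Of the genes that handle bile acids, SULT2A1, which sulfates bile acids and steroids, was the clearest fall. It lay at 13.1, 27.5, and 46.0 CPM in MLE-BDL and at 33.5, 81.0, and 242 in SLE-BDL, with 10 of 11 SLE-BDL pigs above every MLE-BDL pig. It fell by 1.82 (adjusted p = 0.00544), was called with any of the 19 pigs left out, and had a log2 fold change of -1.38 (adjusted p = 0.209) under the identifier block. An amine sulfotransferase-like gene without a symbol fell as well, by 1.11 (adjusted p = 0.0229), and SULT1E1, which sulfates estrogens, fell by 0.77 (adjusted p = 0.0451, lost in 11 of 19 fits with a pig left out, and 0.0704 under the identifier block).

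CYP7A1, the rate-limiting enzyme of bile acid synthesis, lay at 1.31, 3.23, and 7.08 CPM in MLE-BDL and at 2.3, 4.5, and 33.6 in SLE-BDL. Its log2 fold change of -1.44 ± 0.63 did not pass (adjusted p = 0.292). CYP8B1, the 12-alpha-hydroxylase that sets the share of cholic acid, was near the detection limit at a median of 0.771 against 0.0609 CPM, a log2 fold change of 2.22 (adjusted p = 0.0775). None of 18 bile acid transporters passed, with SLC10A1, the uptake carrier of conjugated bile acids, at -0.58 (adjusted p = 0.088) and ATP8B1 at -0.29 (adjusted p = 0.162). Of 15 genes of FXR and FGF sensing none passed, and FGF19 itself was not tested, with 0 counts in 18 of the 19 libraries and 1 count in the other.

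In the P450 and phase I list, 2 of 40 members fell, both of them CYP2C genes, beside 0.691% lower over all genes, and the median was -0.21 (-0.11 without SLE-BDL replicate 7). Vitamin A metabolism had 1 of 33 members past the threshold. RDH16, a retinol dehydrogenase, lay at 26.2, 28.8, and 47.6 CPM in MLE-BDL and at 19.3, 90.0, and 151 in SLE-BDL, so that the lowest pig was in SLE-BDL although the median was well above. It fell by 1.43 (adjusted p = 0.0225), and under the identifier block its log2 fold change was -0.72 (adjusted p = 0.419). DHRS3, the next member by p, was at -0.43 (adjusted p = 0.131). LOC100521659, annotated as cytochrome P450 26B1, which clears retinoic acid, rose by 1.26 (adjusted p = 0.0197), with all MLE-BDL pigs above the SLE-BDL median.

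EPO, erythropoietin, which the liver makes before and shortly after birth, was scarce in MLE-BDL at 0.107, 0.560, and 1.06 CPM. In SLE-BDL it lay at 0.470, 1.14, and 22.5, and 6 pigs exceeded every MLE-BDL pig. It fell by 2.84 (adjusted p = 0.00829), and without SLE-BDL replicate 5 its log2 fold change was -2.05 and no longer past the threshold. Under the identifier block it was -1.76 (adjusted p = 0.406). The other 34 tested genes of the hypoxia list did not pass, the next being BNIP3 at -0.32 (adjusted p = 0.0892). Erythroid markers were on the lower side in 24 of 26 members with a median of -1.20, and none passed, with HBM at -1.69 (adjusted p = 0.0862) and HBB at -1.21 (adjusted p = 0.0929). Their summed level was 404 to 807 CPM in MLE-BDL and 350.4 to 1829 in SLE-BDL, and the list median was -0.49 under the identifier block. What part these markers have in the result for EPO was not tested.

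None of the injury markers the study followed passed the test across all genes. SOX9, a ductular reaction factor, lay at 13.3, 19.3, and 23.9 CPM in MLE-BDL and at 4.54, 13.8, and 20.6 in SLE-BDL, a log2 fold change of 0.52 ± 0.30 (adjusted p = 0.472), while its exact permutation test, not adjusted for the number of genes, gave p = 0.00607. MMP7, a protease of fibrotic liver, was at -0.22 ± 0.55 (adjusted p = 0.911), and TGFB1, the main profibrotic cytokine, at 0.24 ± 0.14 (adjusted p = 0.469). By qPCR, the study reported TGFB1 as raised in MLE-BDL, with a significant difference from SLE-BDL. The groups overlapped for all 3 genes.

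Of 51 matrix genes, 35 had a higher fitted mean, with a median of 0.15 that was 0.03 under the identifier block and 0.05 without MLE-BDL replicate 3. COL15A1 rose, and TNC, tenascin C, fell by 1.29 (adjusted p = 0.0234). Stellate cell markers were even at a median of -0.01, with RELN, reelin, at 0.78 (adjusted p = 0.0111) and DES, desmin, at -0.68 (adjusted p = 0.0284). Under the identifier block neither passed, at 0.50 (adjusted p = 0.331) and -0.48 (adjusted p = 0.212). No cholangiocyte marker passed, with SOX4 at 0.65 (adjusted p = 0.0589) and EPCAM at 0.49 (adjusted p = 0.279). Cell cycle genes had a higher fitted mean in 37 of 40 members with a median of 0.22, and none passed, with GTSE1 at 0.43 (adjusted p = 0.154) and MCM6 at 0.35 (adjusted p = 0.168).

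Cytokine and chemokine genes were flat, with a median of -0.01 and none of 48 past the threshold, and CCL19 had the smallest p (log2 fold change -1.04, adjusted p = 0.0971). Interferon-stimulated genes had a median of -0.62 without a call, led by OASL at -2.85 (adjusted p = 0.053), which was -1.34 without SLE-BDL replicate 6 and -0.22 under the identifier block. Without that pig the list median was -0.22, and under the block it turned to 0.87. Neutrophil markers had a median of -0.49 and lymphocyte markers one of 0.36, and with a pig left out these ranged from -0.84 (without MLE-BDL replicate 8) to -0.22 (without SLE-BDL replicate 4) and from 0.22 (without MLE-BDL replicate 6) to 0.50 (without SLE-BDL replicate 6). Their summed levels in MLE-BDL against SLE-BDL were 254 to 363 against 251 to 736 CPM for neutrophil and 34.4 to 75.3 against 32.0 to 59.1 CPM for lymphocyte markers. No member of either passed, with ELANE at -1.20 (adjusted p = 0.145) and CD79A at 0.79 (adjusted p = 0.201). Of the macrophage and endothelial markers none passed, with SLC40A1 at -0.46 (adjusted p = 0.0855), CD14 at -0.43 (adjusted p = 0.0862), and EMCN at 0.34 (adjusted p = 0.309). Of 30 immediate-early and heat-shock genes, a list that can follow handling of tissue, 25 had a lower fitted mean with a median of -0.18, and the summed level was 2308 to 2935 CPM in MLE-BDL and 2296 to 5064 in SLE-BDL. What part handling has in the falls was not tested. Among them, DUSP1, a phosphatase of MAP kinases, fell by 1.03 (adjusted p = 0.0284), and without SLE-BDL replicate 9 it was at -0.57 and not past the threshold.

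**Figure D3:**
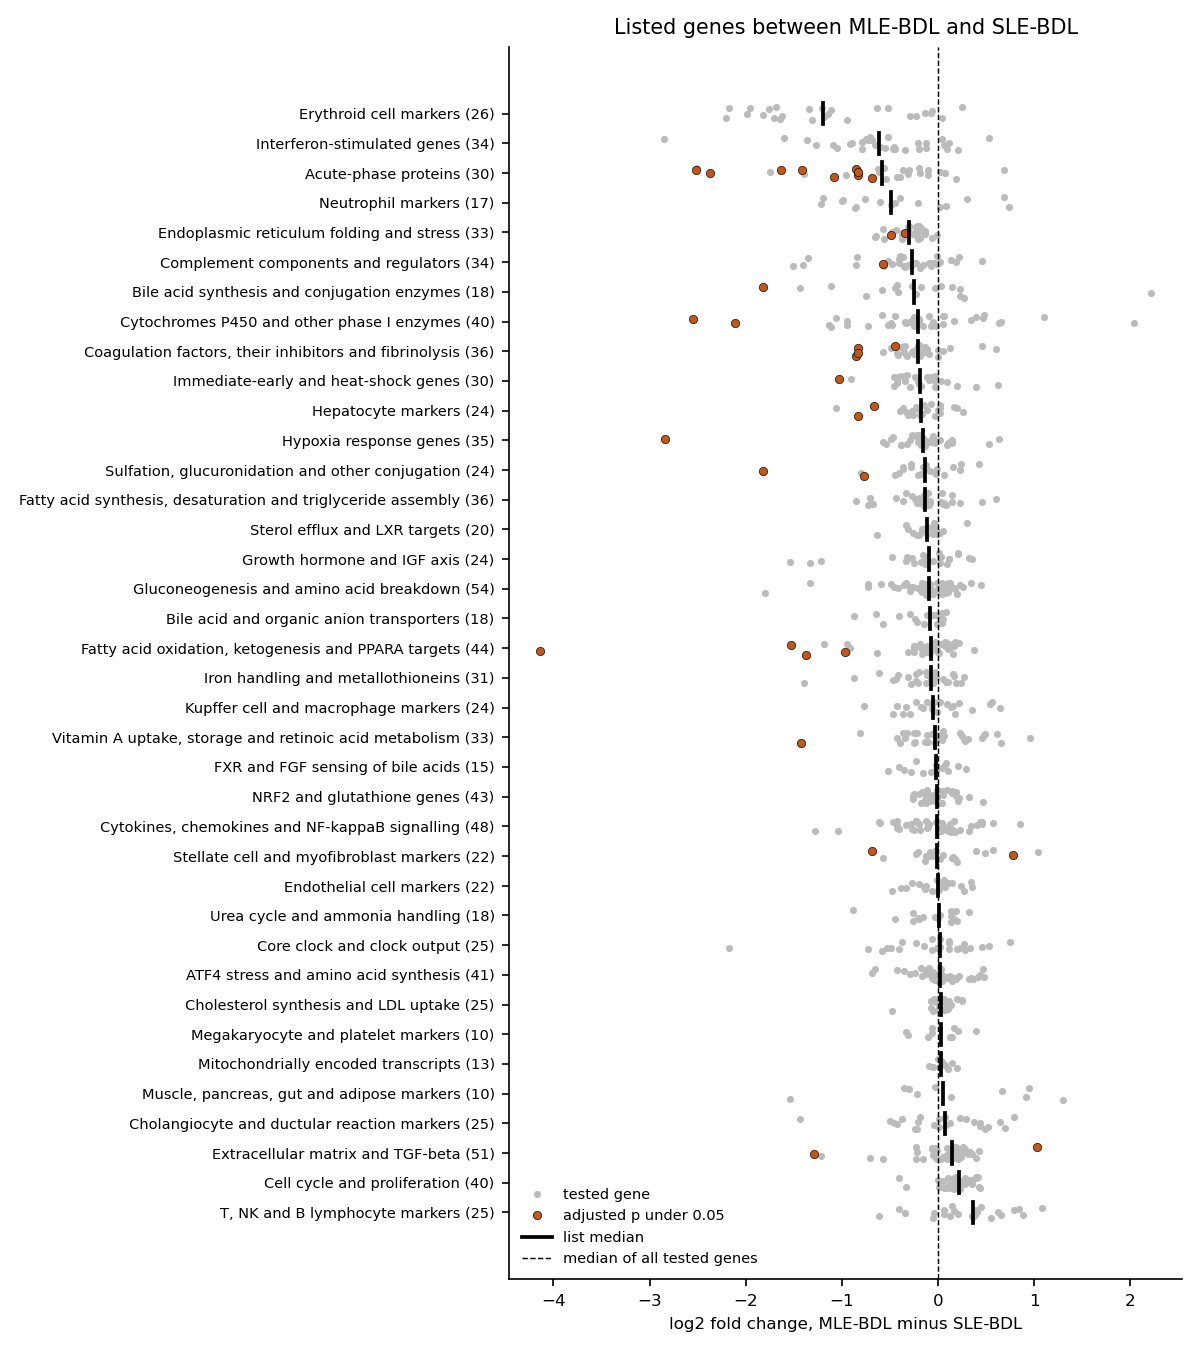
Log2 fold change of MLE-BDL against SLE-BDL (x axis) for the tested genes of 38 lists (number tested in brackets), with 1 point per gene, genes past an adjusted p of 0.05 filled, and a bar at each list median. Acute-phase proteins hold the most filled points (9 of 30), erythroid markers the lowest median (-1.20) with none, and most medians lie near the dashed line of all genes (0.00).

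Over the 39 lists, 1033 distinct genes were tested, of which 27 fell and 2 rose past an adjusted p of 0.05 at any fold, beside 112 (0.691%) and 35 (0.216%) of the 16210 genes tested. In 25 lists no member passed. These included urea cycle, gluconeogenesis, growth hormone axis, ATF4 response, NRF2 and glutathione, iron handling, core clock, megakaryocyte, and mitochondrially encoded genes, whose medians lay between -0.09 and 0.04. The plot of the lists shows that the listed genes past the threshold had fold changes below 0, with RELN and COL15A1 as the exceptions.

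The remaining called genes with a symbol covered several functions. Genes of signalling and stress that fell were C2CD4B (fell by 2.64, and -1.62 with the call lost without SLE-BDL replicate 9), SOCS1 (fell by 1.25, and -0.65 without the same pig), GADD45G (fell by 1.22, and -0.70 without it), RGCC (fell by 1.34), and DUOX2, an oxidase that makes hydrogen peroxide (fell by 1.77). RGCC, a cell cycle regulator, lay at 3.10 to 6.09 CPM in MLE-BDL and at 6.14 to 30.8 in SLE-BDL, without overlap. Its call was nonetheless lost in 11 of 19 fits with a pig left out. Metabolic genes that fell were CDO1, the cysteine dioxygenase of taurine synthesis (by 1.54, and by 1.29 with the call lost without SLE-BDL replicate 5), SLC13A5, a citrate carrier (by 1.33), and GLOD5 (by 1.78), whose call was lost without MLE-BDL replicate 7 (-1.73) or SLE-BDL replicate 7 (-1.26).

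LEAP2, an antagonist of the ghrelin receptor, fell by 1.24, and without SLE-BDL replicate 9 it was at -0.78 and not past the threshold. CKAP4, a membrane protein of the endoplasmic reticulum, fell by 1.01. FAM20A, a pseudokinase of the secretory pathway, had the smallest p of all called genes. It lay at 13.3, 16.3, and 25.1 CPM in MLE-BDL against 21.8, 37.8, and 83.2 and fell by 1.27 (adjusted p = 1.13e-05), and under the identifier block it fell by 1.20 (adjusted p = 0.00397). OLFM3 (-1.92), WDR38 (-1.52), C8H4orf17 (-1.44), CUNH14orf180 (-1.37), and C14H10orf35 (-1.25), given as log2 fold changes, were called at a median of 0.243 to 3.39 CPM in MLE-BDL.

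The other higher genes were UCN3, urocortin 3, SYNPR, synaptoporin, SLC18A2, the vesicular monoamine transporter, S100A4, a calcium-binding protein, and GPC2, glypican 2. UCN3 lay at 1.44, 3.06, and 5.85 CPM in MLE-BDL and at 0.537, 0.934, and 1.66 in SLE-BDL and rose by 1.75 (adjusted p = 0.00405). Its exact permutation p of 2.65e-05 was the smallest of the 60 genes. SYNPR rose by 1.61, SLC18A2 by 1.56, S100A4 by 1.55, and GPC2 by 1.14, all from SLE-BDL medians of 0.562 to 1.24 CPM. In the same order, these calls were lost in 11, 8, 8, and 9 of 19 fits with a pig left out.

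A further 10 called genes had no symbol, 9 of them lower, and 6 of the called genes were long noncoding RNAs or pseudogenes. LOC106504881 and LOC106504875 on chromosome 9 fell by 2.37 and 2.31 (adjusted p = 0.000119 for each), and LOC106504875 separated the groups in full. LOC106504881 (chromosome 9, 42097607-42151803, plus strand) overlaps LOC100524035 (42104511-42235142, minus strand), which fell by 1.68, and as the library kit does not mark strand, their values are uncertain where the genes overlap. LOC110255951 had a log2 fold change of -3.85 that became -0.64 without SLE-BDL replicate 7, with the call lost.

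The same emulsions in sham pigs gave 75 called genes, 0.463% of those tested. Of the 60 genes called after ligation, 6 were also called in sham pigs in the same direction, and 38 had the same sign there. The 6 were SLC25A47 (sham log2 fold change -1.22), ANGPTL4 (-1.23), TNC (-1.26), LOC100521659 (1.42), SYNPR (1.65), and UCN3 (1.24). SLC25A47 had means of 24.6 ± 12.5 CPM (SD, n = 9) in MLE-sham and 56.9 ± 31.3 (SD, n = 10) in SLE-sham, beside 24.0 ± 4.58 (SD, n = 8) in MLE-BDL and 69.1 ± 55.0 (SD, n = 11) in SLE-BDL. UCN3 had 3.58 ± 1.12 and 1.51 ± 0.44 in the sham groups and 3.23 ± 1.31 and 0.95 ± 0.37 in the BDL groups, in the same order. For these 6 genes the lipid difference did not pass the interaction test, with adjusted p values of 0.801 or more.

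**Figure D4:**
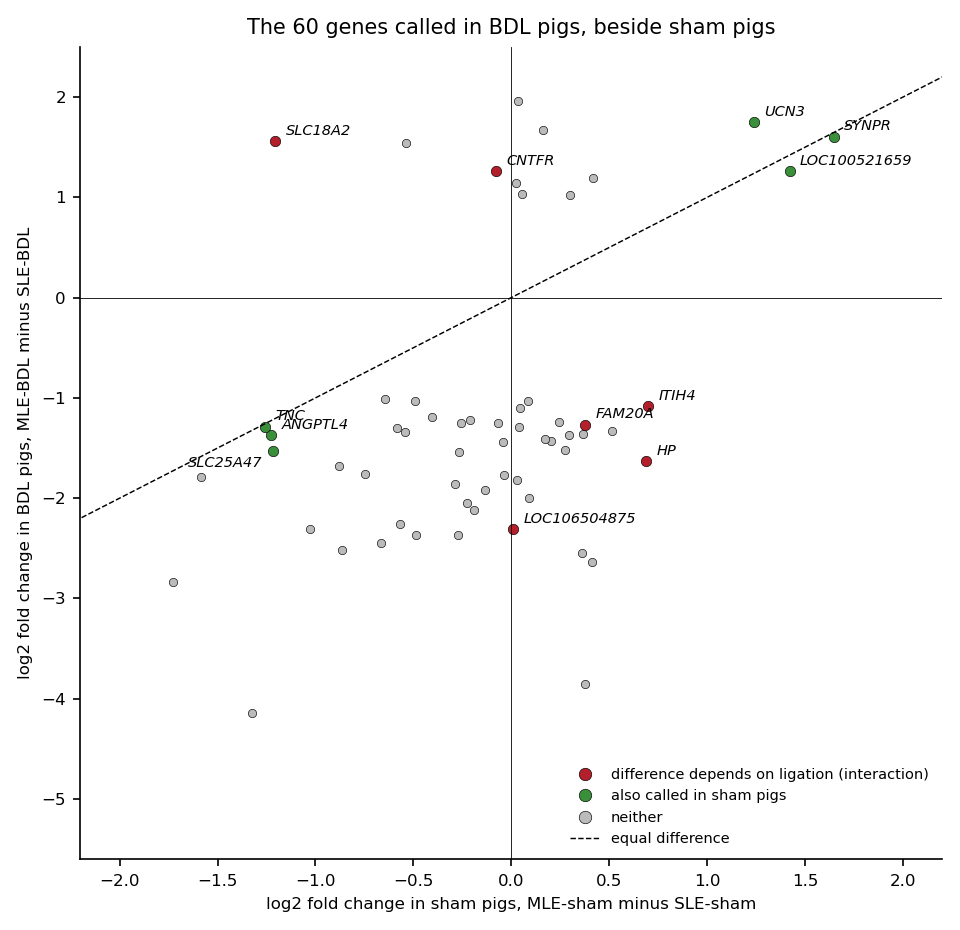
Log2 fold change of MLE against SLE in BDL pigs (y axis) and sham pigs (x axis) for the 60 genes called in BDL pigs, with the dashed line at equal differences. The 6 genes also called in sham pigs lie near the line, the 6 with an interaction lie away from it, and 58 of the 60 have a larger difference in BDL pigs, the contrast by which they were chosen.

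The plot of BDL against sham differences shows most called genes near 0 on the sham axis, with sham medians of -0.20 for the lower and 0.11 for the higher genes. Since the genes were chosen by the BDL contrast, the excess of larger BDL differences follows in part from that choice. The interaction of lipid and surgery was past an adjusted p of 0.05 for 43 genes, 0.265% of those tested, and for 6 of the 60. These were HP, ITIH4, FAM20A, and LOC106504875 among the lower genes and CNTFR and SLC18A2 among the higher genes.

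HP had means of 3976 ± 1358 CPM in SLE-sham (SD, n = 10) and 7616 ± 5662 in SLE-BDL (SD, n = 11), and 6407 ± 2865 in MLE-sham (SD, n = 9) and 2455 ± 650 in MLE-BDL (SD, n = 8). The means of the lipid groups were in opposite order in sham and BDL pigs, although the sham difference did not pass (0.69, adjusted p = 0.315), with an interaction of -2.32 ± 0.42 (adjusted p = 0.00388). ITIH4 had 2776 ± 965 CPM without and 3666 ± 1985 with ligation on SLE, and 4503 ± 1202 without and 1731 ± 321 with ligation on MLE, in the same crossed order with a sham difference that did not pass (0.70, adjusted p = 0.105), and an interaction of -1.78 ± 0.31 (adjusted p = 0.00311). FAM20A had 31.6 ± 6.56, 42.1 ± 17.5, 41.1 ± 6.51, and 17.5 ± 4.19 CPM in the same order of groups and the smallest p, with an interaction of -1.65 ± 0.24 (adjusted p = 5.10e-05).

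CNTFR was close in 3 groups, at 10.1 ± 2.37 CPM in SLE-sham, 8.08 ± 1.22 in SLE-BDL, and 9.58 ± 1.26 in MLE-sham, and stood at 19.4 ± 10.2 in MLE-BDL, an interaction of 1.34 ± 0.25 (adjusted p = 0.00685). SLC18A2 had 1.38 ± 0.83, 1.25 ± 0.70, 0.59 ± 0.37, and 3.71 ± 2.22 CPM in the same order, an interaction of 2.77 ± 0.59 (adjusted p = 0.0142).

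**Figure D5:**
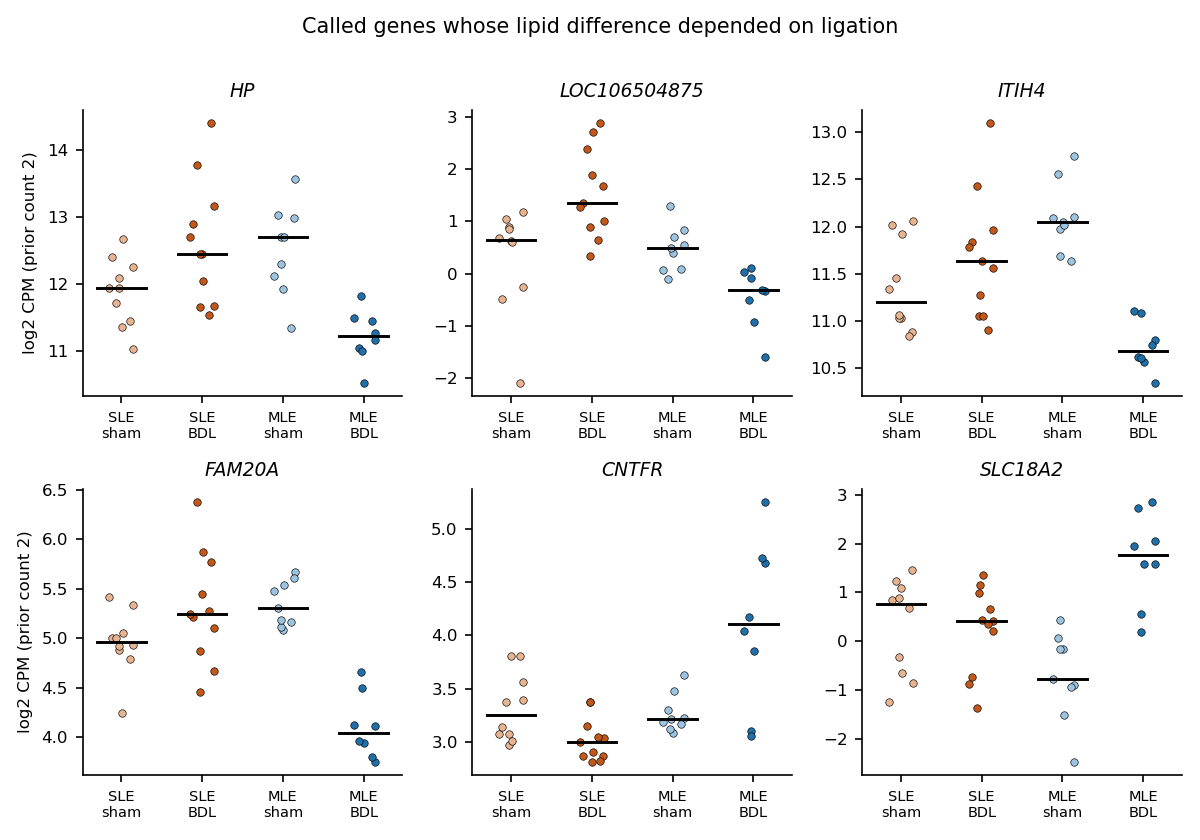
Liver log2 CPM (y axis, prior count 2) of the 6 called genes with an interaction of lipid and surgery, with 1 point per pig in the 4 PN groups (SLE with 10 sham and 11 BDL pigs, MLE with 9 and 8) and a line at each median. HP, ITIH4, and FAM20A are lowest in MLE-BDL (HP mean 2455 CPM) and CNTFR and SLC18A2 are highest there.

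The plot of the interaction genes places the MLE-BDL mean below those of the other 3 groups in 4 panels and above them in 2. LOC106504875 also had its highest mean in SLE-BDL, at 3.31 ± 2.07 CPM against 0.661 ± 0.25 in MLE-BDL and 1.33 ± 0.65 and 1.34 ± 0.47 in the sham groups.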

How the data were processed

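Liver poly(A) mRNA of 60 pigs was sequenced by the authors, who deposited raw read counts per gene in 1 table. Reads were aligned with HISAT2 2.0.5, transcripts were assembled with StringTie 1.3.3, and genes were counted with featureCounts 1.5.0-p3 on Sscrofa11.1, according to the submitters' processing notes and the methods. How multi-mapping reads were counted is not given in the sources used here. The 24 features with no gene name, with 0.0084% to 0.0407% of the reads per library, stayed out of library sizes and tests. Coordinates are those in the deposited table. Named genes held 14469788 to 21374161 counts per library, so values well under 1 CPM rest on few reads.

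Genes were filtered with filterByExpr and scaled by TMM, and edgeR 4.0.16 in R 4.3.3 was fitted to all 60 pigs with 1 mean per group (robust quasi-likelihood test, Benjamini-Hochberg adjustment, threshold 0.05 with a fold above 2). Fitting all 6 groups gives a shared estimate of spread. The scripts were tested on simulated counts. The interaction contrast was tested at any fold. Log2 CPM used a prior count of 2. Single genes also had a two-sided exact permutation test over the 19 pigs (75582 arrangements). Full statistics were given for the 10 largest falls and 6 largest rises among called genes that have a symbol and average at least 1 on the log2 CPM scale. Named besides were the other called genes with a symbol, except an item that is not reported here, list members past the threshold or leading their list by p, and genes the study followed or earlier results pointed to. Genes near the threshold and those singled out in the last section were picked with their values known. The members and the 39 lists were chosen with earlier results of these data known. Plots were drawn with matplotlib 3.10.9 in Python 3.11.15.

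Replicate numbers of the labels did not pair the samples. Deviations of the 8 same-numbered pairs of MLE-BDL and SLE-BDL pigs correlated at -0.231 to 0.201, and 1 pair was over 0.1. The 4 pairs with the same identifier number correlated at 0.066 to 0.248 (median 0.135, 3 over 0.1), against a median of -0.009 for the 84 pairs with different numbers. The alternatives were DESeq2 1.42.0, limma 3.58.1 with voom, edgeR on the 19 pigs, other scaling and filters, blocks, a Y-linked covariate, and leaving pigs out. A pair of enterally fed libraries was nearly alike (chi-square per degree of freedom 1.91) and was left out together in 1 alternative. Enterally fed groups entered the fit only for its spread. Fold changes of other comparisons and pathway databases were not used here.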

Additional observations from a re-analysis of the deposited data

Results flagged for a closer look

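The lipid difference itself differed between BDL and sham pigs for 6 of the called genes, by the interaction term of the edgeR fit. The interaction, on the log2 scale, was -2.32 for HP, -1.78 for ITIH4, -1.65 for FAM20A, -2.31 for LOC106504875, 1.34 for CNTFR, and 2.77 for SLC18A2. HP and ITIH4 are abundant acute-phase proteins, and for both the order of the lipid groups was opposite in sham pigs, where the lipid difference did not pass for either (adjusted p = 0.315 and 0.105).

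Among the 8 MLE-BDL pigs, 5 of the 77 genes examined had 1 pig far from the others by Dixon's test on log2 CPM, and chance alone marks about 1 in 20 groups. RDH16 reached 47.6 CPM in replicate 2 with the next pig at 33.4, and GLOD5 reached 3.94 CPM in replicate 5 with the next at 2.30. At the low end were SAA3 at 8.80 CPM in replicate 1 (next 14.9), C14H10orf35 at 0.638 CPM in replicate 7 (next 1.25), and DERL2 at 39.0 CPM in replicate 2 (next 46.9). The SLE-BDL group has 11 pigs and was not examined in this way.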

How the results depend on the processing

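Genes called between MLE-BDL and SLE-BDL numbered 60, while DESeq2 gave 110 (16 higher, 94 lower) on all pigs and 104 (33 higher, 71 lower) on the 19 pigs, limma-voom 28 (16 higher, 12 lower), edgeR on the 19 pigs 9, a minimum of 10 counts in every pig 39, the identifier number block 10, any fold 147, and the 3 against 3 pigs with shared numbers 0 (987 genes at an unadjusted p under 0.05). Leaving out 1 pig gave 27 to 91, with 39 without MLE-BDL replicate 4, 27 without 5, and 30 without 7, and 35, 91, and 35 without SLE-BDL replicates 5, 6, and 7. Of the 6 genes also called in sham pigs, 3 stayed so without a count filter and 3 under the identifier block, and leaving out a pig gave 4 to 7. The 6 with an interaction became 18 and 15 with DESeq2 on all and on the compared groups, 3 with limma-voom, and 1 with shared-number pigs, and 6 to 13 with a pig left out, the 13 without SLE-BDL replicate 6. RLE scaling (64), no filter (53), the Y-linked covariate (46), and leaving out the near-alike enteral pair (70) stayed within 1.5 times. No named call reversed its direction in these fits, although 9 of the 60 had the opposite sign among the few pigs of 1 shared number. The causes of these changes were not tested.

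The fit with the replicate block called 56 genes, 39 of them among the 60, and the replicate numbers pair no pigs by any source. DESeq2 gave no adjusted p for LOC110255951 and DUOX2 on all pigs. For LIPG, DESeq2 gave -0.58 (adjusted p = 0.411) and the exact permutation test p = 0.288, the highest of the 60. The interferon list median was -0.62 and turned to 0.87 under the identifier block, and that of muscle genes went from 0.05 to 0.28. Genes under 1 CPM in a group, such as EPO and CYP2C36, rest on few reads.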

Other observations

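Beyond the called genes and lists, genes past an adjusted p of 0.05 at less than 2-fold included the following, picked after their values were seen and from no fixed list. Log2 fold changes were -0.78 for CRYAB (adjusted p = 0.016), -0.71 for HSPB2, and -0.56 for HSPB8, which are small heat shock proteins, and -0.75 for the co-chaperone BAG3, while HSPB1 of the same family did not pass (-0.41, adjusted p = 0.064). CRYAB and HSPB2 overlap on opposite strands of chromosome 9, so their values are uncertain where they overlap. Also lower were KDELR3 (-0.73), a retrieval receptor of the endoplasmic reticulum, TMED7 (-0.49), MIA3 (-0.41), and SEC61A1 (-0.39), the channel of the translocon.

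IYD, which recovers iodide from iodotyrosines, was lower by a log2 fold change of -0.97 (adjusted p = 0.008), and FKBP5, a glucocorticoid-responsive co-chaperone, by -0.85. Higher in MLE-BDL were WEE1 (0.64), a kinase that restrains mitosis, DBN1 (0.72), an actin-binding protein, and NREP (0.68). PRKAR2B, a regulatory subunit of protein kinase A, was the gene with every MLE-BDL pig above every SLE-BDL pig, at 59.7 to 68.1 CPM against 36.8 to 57.1. C8H4orf33, of unknown role, was lower without overlap, at 0.836 to 1.69 CPM against 1.71 to 3.10.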
